A study of Mus musculus with 16 samples.

Results

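A set of 10 genes of the lymphotoxin, RANK and TNF axis was followed in lymph node macrophages from tumor-bearing mice, 6 coding for ligands (Lta, Ltb, Tnfsf11, Tnfsf14, Tnf and Tnfsf13b) and 4 for receptors (Ltbr, Tnfrsf11a, Tnfrsf1a and Tnfrsf1b). These 10 of the 55423 features of the count table were chosen by name, with earlier results of these data known. Their counts beside those of all tested genes are thus a description. All 10 passed the filter on low counts that left 21085 genes to test, and 9 of them had a mean normalized count over 100, which a call of differential expression required here. The exception was Tnfsf13b, with a mean count of 70.7.

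The macrophages came from male C57B/6 mice carrying MOC2, a chemically induced squamous cell carcinoma line, of which 500000 cells had been implanted intradermally in the flank 2 weeks earlier. Every group carried the tumor, and no tumor-free mouse entered the comparison. Subcapsular sinus macrophages (SSMs), which line the sinus where lymph enters the node, were sorted from live leukocytes (7AAD- CD45+) without T cell, B cell or neutrophil markers (CD3, B220, Ly6G) as CD169+ CD11b+ cells that were CD11c- and of low side scatter. Medullary sinus macrophages (MSMs), from the sinuses where lymph leaves, were gated the same way but were CD11c+ and of high side scatter. Each subset was taken from tumor-draining nodes (tdLN, inguinal) and from non-draining nodes of the opposite flank (ndLN, inguinal, axillary and brachial), so that tumor drainage and the site of the node cannot be told apart. Each of the 4 groups had 2 libraries, each from a pool of 2 mice with 2 tdLN or 6 ndLN. The study's methods count 4 pools, but the 16 columns are 8 libraries on 2 lanes each, whose lanes agreed within sampling noise, so n = 2 is the number of libraries in a group, and the mice's age was not given in the sources used here. Errors below are standard errors of the fitted log2 fold change. Where libraries of 2 groups are said not to overlap, the share of all tested genes without overlap was not computed.

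Lymphotoxin alpha and beta, coded by Lta and Ltb, form a membrane-bound heterotrimer that signals through the lymphotoxin beta receptor (Ltbr). This pathway is required for the formation of lymph nodes, and together with RANK ligand (Tnfsf11) and its receptor RANK (Tnfrsf11a) it is known to maintain the macrophages of the lymph node sinuses. TNF (Tnf) and the soluble homotrimer of lymphotoxin alpha share the receptors Tnfrsf1a and Tnfrsf1b. LIGHT (Tnfsf14) is a further ligand of Ltbr, and BAFF (Tnfsf13b) is a survival factor of B cells. In lymph nodes the ligands of Ltbr and RANK are classically made by lymphocytes, innate lymphoid cells and stromal cells, and their receptors by myeloid and stromal cells.

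Each library held 42972328 to 48130352 counts over both lanes, so that 3 counts corresponded to 0.0623 to 0.0698 per 1000000 counts, before any scaling for library composition. CPM is the count per 1000000 counts of the library, scaled for library composition. Levels are compared between genes only per kilobase of exon (RPKM). Siglec1, which codes for CD169, stood at 8.47 to 70.0 CPM in the 4 SSM libraries and at 0.795 to 5.96 CPM in the 4 MSM libraries, although both subsets were sorted as CD169+. Itgax, which codes for CD11c, was lower in SSMs (63.6 to 149 CPM) than in MSMs (316 to 418 CPM), and Itgam, which codes for CD11b, was higher (54.6 to 124 CPM against 9.64 to 20.4 CPM). Transcripts of Cd3e, a T cell gene whose protein was gated out, amounted to 75.0 to 151 CPM in SSMs and 2.14 to 16.3 CPM in MSMs.

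The promoters of Lta, Ltb, Tnfsf11 and Tnfsf14 are shown because these 4 ligand genes were called higher in SSMs than in MSMs in both nodes. The sequences are RefSeq promoters on GRCm38.p6, from 250 bases before to 50 bases after the annotated start, read 5′ to 3′ on the strand of the gene, and capitals mark matches to the NF-kappaB motif or to the AP-1 motif (TGACTCA or TGAGTCA), both searched on both strands. They lie at chr17:35205302-35205601 (minus strand, Lta), chr17:35194257-35194556 (plus strand, Ltb), chr14:78307994-78308293 (minus strand, Tnfsf11) and chr17:57194132-57194431 (minus strand, Tnfsf14).
Lta: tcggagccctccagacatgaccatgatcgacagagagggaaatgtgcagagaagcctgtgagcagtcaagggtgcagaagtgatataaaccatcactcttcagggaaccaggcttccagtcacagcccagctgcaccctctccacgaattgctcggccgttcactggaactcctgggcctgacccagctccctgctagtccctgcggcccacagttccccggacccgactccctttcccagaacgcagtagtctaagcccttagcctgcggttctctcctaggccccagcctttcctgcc
Ltb: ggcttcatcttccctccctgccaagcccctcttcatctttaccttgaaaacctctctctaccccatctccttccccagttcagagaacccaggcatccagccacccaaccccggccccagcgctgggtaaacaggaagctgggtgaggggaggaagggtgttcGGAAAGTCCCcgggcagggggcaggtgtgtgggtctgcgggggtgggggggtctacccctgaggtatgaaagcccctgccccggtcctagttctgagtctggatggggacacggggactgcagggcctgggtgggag
Tnfsf11: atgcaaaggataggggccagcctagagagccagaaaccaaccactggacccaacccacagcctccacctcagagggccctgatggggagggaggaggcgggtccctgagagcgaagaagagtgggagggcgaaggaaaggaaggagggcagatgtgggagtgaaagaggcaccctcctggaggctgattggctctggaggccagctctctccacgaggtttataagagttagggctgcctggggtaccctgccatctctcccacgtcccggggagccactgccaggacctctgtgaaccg
Tnfsf14: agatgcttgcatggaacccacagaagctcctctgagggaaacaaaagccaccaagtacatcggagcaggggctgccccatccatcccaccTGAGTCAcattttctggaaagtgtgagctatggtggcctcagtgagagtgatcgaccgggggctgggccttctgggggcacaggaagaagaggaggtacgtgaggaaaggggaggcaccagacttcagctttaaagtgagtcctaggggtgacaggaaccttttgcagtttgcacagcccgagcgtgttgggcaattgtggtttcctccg
The Ltb promoter held 1 NF-kappaB match, GGAAAGTCCC, beginning 87 bases before the start. The Tnfsf14 promoter held 1 AP-1 match, TGAGTCA, beginning 160 bases before the start, and neither motif was found in the windows of Lta and Tnfsf11. Of 32851 promoters of this length, 8.46% held an NF-kappaB match and 5.20% an AP-1 match.

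The comparison of SSMs with MSMs asks which members of the axis each sinus macrophage population carries. In ndLN, 5 of the 10 genes were called higher in SSMs and 0 lower, at an adjusted p below 0.01 and a mean normalized count over 100. These were Tnfsf11, Lta, Ltb, Tnfsf14 and Tnfrsf1b, that is, 4 of the 6 ligands and 1 of the 4 receptors. Over all tested genes, 6.01% were called higher (1267 genes) and 6.06% lower (1278 genes) in this comparison. Such shares of calls, here and below, include genes that could not be called. Only 9996 of the 21085 tested genes had the mean normalized count over 100 that a call required, against 9 of the 10. The shares are thus a low reference for the 10 genes. The median log2 fold change was 0.91 over the 10 genes and 0.09 over all genes tested. In tdLN the same 5 genes were called higher in SSMs and 1 gene, Tnfrsf11a, was called lower, against 5.16% and 3.53% of all tested genes, with a median of 1.61 over the 10 genes and 0.02 over all.

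Tnfsf11, which codes for RANK ligand, had the largest difference of the 10 genes in either node. It stood at 179 and 242 CPM in the SSM libraries from ndLN and at 61.7 and 42.0 CPM in those from tdLN. The MSM libraries had 2.77 and 6.93 CPM in ndLN and 0.921 and 0.660 CPM in tdLN. No SSM library overlapped any MSM library, and in both subsets each ndLN library was above each tdLN library. SSMs exceeded MSMs 42.7-fold in ndLN (log2 fold change 5.42 ± 0.39, adjusted p = 9.47e-05) and 66.7-fold in tdLN (6.06 ± 0.51, adjusted p = 0.000293). The gene lies at chr14:78277445-78308043.

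Lta, which codes for the alpha chain of lymphotoxin, followed the same order with a smaller span. Its levels were 28.4 and 29.6 CPM in SSMs from ndLN, 13.8 and 8.34 CPM in SSMs from tdLN, 1.46 and 1.54 CPM in MSMs from ndLN, and 1.65 and 1.12 CPM in MSMs from tdLN. The 2 SSM groups were apart from each other and from all MSM libraries, while the MSM groups overlapped. SSMs exceeded MSMs 19.3-fold in ndLN (log2 fold change 4.27 ± 0.34, adjusted p = 0.000131) and 7.97-fold in tdLN (2.99 ± 0.37, adjusted p = 1.43e-03).

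Ltb, which codes for the chain that anchors the lymphotoxin heterotrimer in the membrane, was the most abundant of the 6 ligands per length in SSMs, at a mean of 209 RPKM in ndLN and 98.1 RPKM in tdLN. Its libraries stood at 296 and 339 CPM in SSMs from ndLN and at 148 and 150 CPM in SSMs from tdLN. MSMs had 34.9 and 51.9 CPM in ndLN and 49.6 and 27.4 CPM in tdLN. MSM libraries of the 2 nodes overlapped and lay below every SSM library. The log2 fold change was 2.87 ± 0.30 in ndLN (7.29-fold, adjusted p = 0.000515) and 1.95 ± 0.30 in tdLN (3.87-fold, adjusted p = 3.81e-03).

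Tnfsf14, which codes for LIGHT, stood at 51.8 and 45.7 CPM in SSMs from ndLN, 39.4 and 42.8 CPM in SSMs from tdLN, 5.61 and 9.34 CPM in MSMs from ndLN, and 11.7 and 5.31 CPM in MSMs from tdLN. SSM and MSM libraries did not overlap, and the MSM groups overlapped each other. The difference was 6.42-fold in ndLN (log2 fold change 2.68 ± 0.36, adjusted p = 1.48e-03) and 4.91-fold in tdLN (2.30 ± 0.36, adjusted p = 4.02e-03).

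Tnf and Tnfsf13b were not called in either node. Tnf, the inflammatory cytokine, stood at 87.9 and 57.2 CPM in SSMs from ndLN, 79.6 and 84.2 CPM in SSMs from tdLN, 41.8 and 56.0 CPM in MSMs from ndLN, and 33.7 and 43.9 CPM in MSMs from tdLN. Each SSM library was above each MSM library, but the lowest SSM library (57.2 CPM) was close to the highest MSM library (56.0 CPM), and the log2 fold change was 0.58 ± 0.26 in ndLN (adjusted p = 0.158) and 1.08 ± 0.26 in tdLN (adjusted p = 0.0283). Tnfsf13b had 3.48 and 0.869 CPM in SSMs from ndLN, 2.80 and 5.34 CPM in SSMs from tdLN, 6.79 and 4.01 CPM in MSMs from ndLN, and 1.14 and 0.528 CPM in MSMs from tdLN. The SSM groups overlapped each other, and within MSMs both ndLN libraries were above both tdLN libraries. Its log2 fold change of SSMs against MSMs was -1.30 ± 0.59 in ndLN and 2.34 ± 0.77 in tdLN, and Gm44789 lies within the gene (chr8:10006467-10039072).

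Ltb, Tnf and Lta are neighbours on chromosome 17, at chr17:35194439-35196320, chr17:35199381-35202007 and chr17:35203165-35205351 (mm10). The outer genes of this stretch, Ltb and Lta, were called higher in SSMs in both nodes, and Tnf between them in neither. Tnfsf14 lies further along the same chromosome, at chr17:57189492-57194177. The microRNA gene Mir6974 lies within Lta and Mir6973a within Ltb, and the strand setting of the counting was not given in the sources used here.

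**Figure D1:**
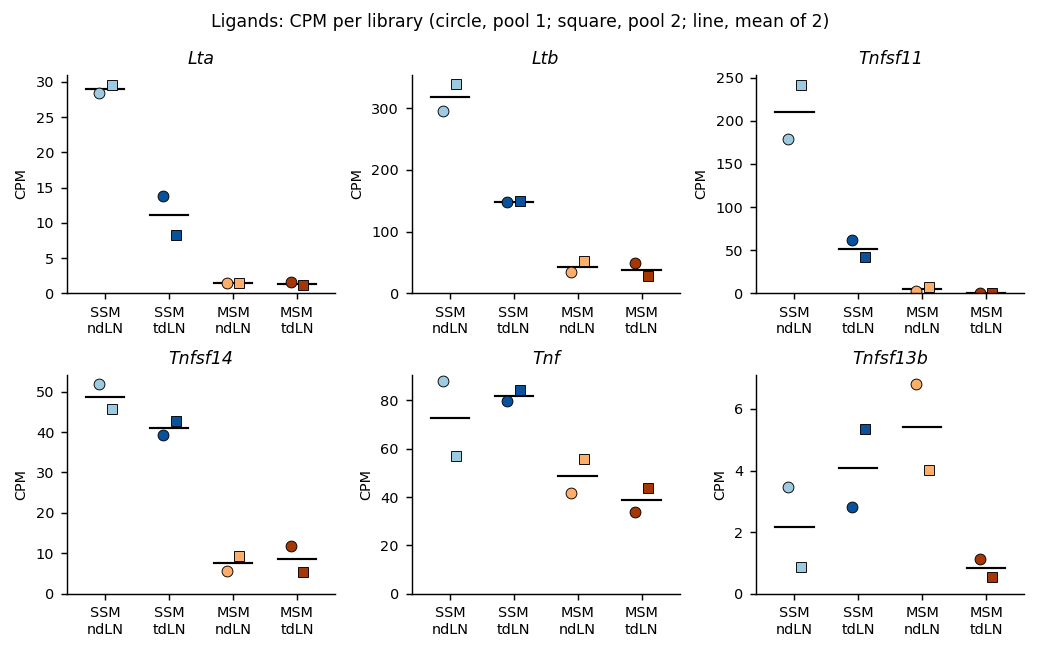
Level of the 6 ligand genes in CPM (linear axis from 0) in each of the 8 libraries, by subset and node. Circles are pool 1, squares pool 2 and lines the mean of 2 libraries. Tnfsf11, Lta, Ltb and Tnfsf14 are higher in all 4 SSM libraries than in all 4 MSM libraries.

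Transcripts of lymphocytes were present in the SSM libraries beside these ligands. Of 15 marker genes of innate-like T cells and type 3 innate lymphoid cells (such as Il23r, Il7r, Ccr6 and Il17a), 14 were called higher in SSMs in each node. Their summed level was 3212 to 4044 CPM in SSMs from ndLN, 1234 to 1307 CPM in SSMs from tdLN, 79.7 to 108 CPM in MSMs from ndLN and 39.5 to 43.3 CPM in MSMs from tdLN, and none of the 15 was at 0 in all libraries. Of 11 T cell genes, 10 were called higher and 1 lower in SSMs from ndLN, and 9 higher and 1 lower in SSMs from tdLN, with sums of 2308 to 2535, 1018 to 1170, 678 to 824 and 492 to 534 CPM in the same order of groups. The gene that ran the other way was Cd8a, a coreceptor gene also known from dendritic cells, at 10.0 to 25.7 CPM in SSMs and 357 to 605 CPM in MSMs. Without Cd8a, left out after its values were seen, the sums were 2282 to 2512, 1008 to 1157, 219 to 292 and 95.1 to 136 CPM. Of 10 genes of NK and cytotoxic cells, 9 were called higher in SSMs in each node, with sums of 2865 to 3564, 2181 to 3149, 297 to 327 and 218 to 252 CPM. The 9 called stood at 0 to 43.2 CPM each in the MSM libraries, so most of the MSM sums came from the 1 gene not called. The part of these lymphocyte transcripts in the ligand differences was not tested. In bulk samples fewer cells of a type and less RNA per cell cannot be told apart.

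The level of each ligand was set beside 2 of these lists in the same library. Per 100 CPM of the 15 innate-like lymphoid genes, Tnfsf11 had 5.57 to 5.97 CPM in SSMs from ndLN, 3.21 to 5.00 in SSMs from tdLN, 3.47 to 6.43 in MSMs from ndLN and 1.67 to 2.13 in MSMs from tdLN. Lta had 0.733 to 0.884, 0.638 to 1.12, 1.43 to 1.83 and 2.84 to 3.80 CPM per 100 CPM of the markers in the same order. Ltb had 8.38 to 9.21 and 11.5 to 11.97 in SSMs, and 43.8 to 48.2 and 69.4 to 114 in MSMs. Tnfsf14 had 1.13 to 1.61 and 3.19 to 3.27 in SSMs, and 7.04 to 8.67 and 13.4 to 27.0 in MSMs.

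Against the T cell list the order differed. Per 100 CPM of the 11 T cell genes, Tnfsf11 had 7.75 to 9.53 and 3.59 to 6.06 CPM in SSMs and 0.336 to 1.02 and 0.124 to 0.187 CPM in MSMs, from ndLN and tdLN in turn. Lta had 1.17 to 1.23 and 0.713 to 1.36 in SSMs and 0.177 to 0.227 and 0.210 to 0.335 in MSMs. Ltb had 12.8 to 14.5 in SSMs and 4.24 to 10.1 in MSMs, and Tnfsf14 1.80 to 3.87 and 0.682 to 2.37. In each node, all 4 ligands were thus higher in SSMs relative to the T cell list, whereas Lta, Ltb and Tnfsf14 were lower in SSMs relative to the innate-like list. Without Cd8a in the T cell list, Tnfsf11 still had higher ratios in SSMs (3.63 to 9.62 against 0.678 to 2.37) and Ltb lower ones (12.95 to 14.7 against 16.0 to 36.5). Tnfsf14 was then also lower in SSMs, at 1.82 to 2.27 against 2.57 to 3.20 in ndLN and 3.70 to 3.91 against 5.58 to 8.60 in tdLN. Lta stayed higher in ndLN (1.18 to 1.24 against 0.527 to 0.668) and overlapped in tdLN (0.721 to 1.37 against 1.18 to 1.21). The order of Lta, Ltb and Tnfsf14 thus depended on the markers chosen. Tnfsf11 had higher ratios in SSMs against each list, except in ndLN against the innate-like list, where the ratios overlapped.

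**Figure D2:**
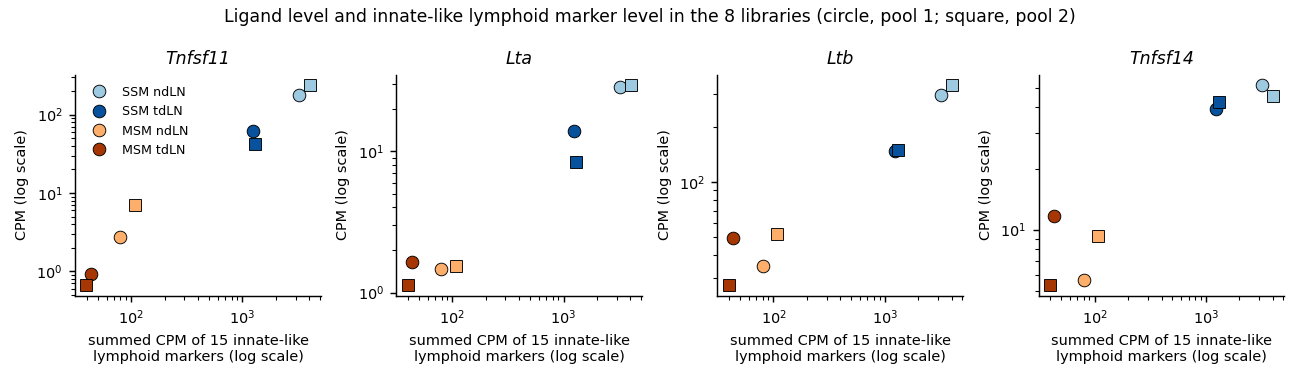
Level of 4 ligand genes (CPM, log axis) against the summed level of 15 innate-like lymphoid marker genes (CPM, log axis), 1 point per library, colored by group, with circles for pool 1 and squares for pool 2. SSM libraries lie at the upper right and MSM libraries at the lower left, and Tnfsf11 spans 0.660 to 242 CPM while the markers span 39.5 to 4044 CPM.

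Among the other cell types a sort could carry, the summed level of 10 mast cell and basophil genes was 2131 to 3138 CPM in SSMs from ndLN, 410 to 845 CPM in SSMs from tdLN, 672 to 692 CPM in MSMs from ndLN and 312 to 409 CPM in MSMs from tdLN. Of these 10, 7 were called higher and 0 lower in SSMs from ndLN, and 7 higher and 1 lower in tdLN. The 7 called in ndLN stood at 0.0223 to 69.6 CPM each in MSMs from ndLN. Most of the sum in those MSMs thus came from the genes not called. Dendritic cell genes summed to 1676 to 2458, 1026 to 1628, 4412 to 4675 and 5604 to 5669 CPM, and 7 of 10 were called lower in SSMs from ndLN. Macrophage genes summed to 16769 to 20587, 28951 to 36143 and 14464 to 14553 CPM, with 14510 CPM in both MSM libraries from tdLN. B cell genes summed to 315 to 1693 CPM, neutrophil genes to 9.18 to 817 CPM, and stromal and lymphatic endothelial genes to 40.0 to 156 CPM over the 8 libraries, with the stromal chemokine gene Ccl21a at 0 in all of them. In bulk RNA none of these sums assigns a transcript to a cell.

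Of the 4 receptors, Tnfrsf1b was called between the subsets in both nodes, Tnfrsf11a in tdLN, and Ltbr and Tnfrsf1a in neither. Tnfrsf1b, which codes for the second TNF receptor, was the most abundant of the 10 genes per length in SSMs, at means of 371 RPKM in ndLN and 295 RPKM in tdLN. It stood at 1268 and 1564 CPM in SSMs from ndLN, 1199 and 1054 CPM in SSMs from tdLN, 594 and 601 CPM in MSMs from ndLN, and 489 and 454 CPM in MSMs from tdLN. No SSM library overlapped any MSM library. The log2 fold change was 1.25 ± 0.14 in ndLN (2.37-fold, adjusted p = 6.50e-04) and 1.26 ± 0.14 in tdLN (2.39-fold, adjusted p = 8.84e-04). The gene lies at chr4:145213463-145246870.

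Tnfrsf11a, which codes for RANK, ran the other way to its ligand. Its libraries stood at 22.6 and 30.7 CPM in SSMs from ndLN, 33.0 and 35.7 CPM in SSMs from tdLN, 42.9 and 36.8 CPM in MSMs from ndLN, and 71.6 and 76.5 CPM in MSMs from tdLN. Every MSM library was above every SSM library. The difference was called in tdLN (log2 fold change -1.11 ± 0.19, adjusted p = 6.43e-03) and not in ndLN (-0.59 ± 0.19, adjusted p = 0.0682), and the 2 differences were not shown to differ from each other (interaction -0.52 ± 0.27, adjusted p = 0.524). The gene lies at chr1:105780718-105847981, and 0.59% of the 50-base windows in its exons occur in another gene.

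Ltbr, the receptor of lymphotoxin and LIGHT, was not called between the subsets. It stood at 32.0 and 17.1 CPM in SSMs from ndLN, 74.6 and 60.5 CPM in SSMs from tdLN, 40.0 and 51.7 CPM in MSMs from ndLN, and 36.7 and 37.3 CPM in MSMs from tdLN. SSMs lay below MSMs in ndLN and above them in tdLN, without overlap in either node, and the log2 fold changes were -0.93 ± 0.29 (adjusted p = 0.0538) and 0.86 ± 0.28 (adjusted p = 0.0825).

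Tnfrsf1a, the first TNF receptor, had the same arrangement at a higher level. It stood at 301 and 222 CPM in SSMs from ndLN, 455 and 405 CPM in SSMs from tdLN, 434 and 421 CPM in MSMs from ndLN, and 316 and 344 CPM in MSMs from tdLN. The log2 fold change of SSMs against MSMs was -0.72 ± 0.15 in ndLN (adjusted p = 0.0125) and 0.38 ± 0.15 in tdLN (adjusted p = 0.158). Per length, Tnfrsf1a was the most abundant of the 10 genes in MSMs (165 RPKM in ndLN and 127 RPKM in tdLN), next to Tnfrsf1b at 156 and 123 RPKM. Both Ltbr (chr6:125306571-125313885) and Tnfrsf1a (chr6:125349362-125362484) lie on chromosome 6.

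**Figure D3:**
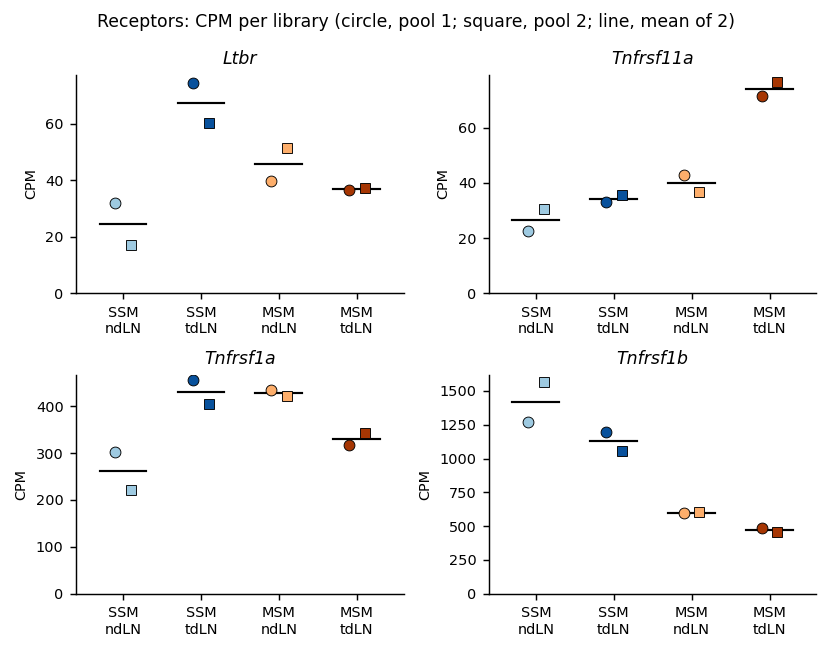
Level of the 4 receptor genes in CPM (linear axis from 0) in each of the 8 libraries, by subset and node. Circles are pool 1, squares pool 2 and lines the mean of 2 libraries. Tnfrsf1b is higher in all SSM libraries and Tnfrsf11a in all MSM libraries, while Ltbr and Tnfrsf1a are highest in SSMs from tdLN by their means.

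Over both nodes together, with node and pool as additive terms, the same 5 genes were called higher in SSMs (Tnfsf11, Lta, Tnfsf14, Ltb and Tnfrsf1b) and Tnfrsf11a was called lower (log2 fold change -0.85 ± 0.17, adjusted p = 7.07e-03), against 6.45% of all tested genes higher and 6.04% lower. Tnf had a log2 fold change of 0.83 ± 0.21 in this fit (adjusted p = 0.0194). The call of Tnfrsf11a over both nodes was lost when any library other than number 2 of SSMs or of MSMs from ndLN was left out (adjusted p between 0.0235 and 0.0327), with the direction kept. Single libraries also bore on the calls within a node, where leaving out a library of either group compared lowered the calls over all tested genes as well. Without library 1 of MSMs from ndLN, 2 of the 5 calls in ndLN were left (Tnfsf11 and Lta). In tdLN, 1 of the 6 calls was left without library 1 of SSMs or library 2 of MSMs, 2 without library 2 of SSMs and 3 without library 1 of MSMs, and Tnfsf11 was called each time, with an adjusted p of at most 9.19e-03.

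The comparison of tdLN with ndLN asks how these genes differ in nodes that drain the tumor. In SSMs, 1 of the 10 genes was called lower in tdLN and 0 higher, where 1.05% of all tested genes were called lower and 1.98% higher. The gene called was Tnfsf11, 3.99-fold lower in tdLN (log2 fold change -1.99 ± 0.31, adjusted p = 9.84e-03). This call was close to the threshold and was lost when any of the 8 libraries was left out. The direction was kept each time, with log2 fold changes of -2.63 to -1.46. Fewer of all tested genes were called in each of these fits as well.

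The other lymphotoxin genes did not pass the adjusted threshold in SSMs. Lta had a log2 fold change of -1.41 ± 0.25 in tdLN against ndLN (adjusted p = 0.0146) and Ltb of -1.09 ± 0.28 (adjusted p = 0.0537), with each tdLN library below each ndLN library for both. The receptors Ltbr (1.47 ± 0.28, adjusted p = 0.0199) and Tnfrsf1a (0.72 ± 0.15, adjusted p = 0.0270) had higher values in both tdLN libraries than in both ndLN libraries. Tnfsf14, Tnf, Tnfsf13b, Tnfrsf11a and Tnfrsf1b had log2 fold changes between -0.33 and 0.95, with adjusted p between 0.206 and 0.761. Of these, Tnfsf14, Tnfrsf11a and Tnfrsf1b also had no overlap between the nodes, while Tnf and Tnfsf13b overlapped. The median log2 fold change of the 10 genes was -0.04, and that of all tested genes was also -0.04. In the same comparison, 8 of the 15 innate-like lymphoid markers and 3 of the 11 T cell genes were called lower in tdLN, and their part in the difference of Tnfsf11 was not tested. Of 9 macrophage genes, 5 were called higher in tdLN and 0 lower, against 1.98% and 1.05% of all tested genes. The part of macrophage transcripts in the differences of Ltbr and Tnfrsf1a was not tested.

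In MSMs, 0 of the 10 genes were called between tdLN and ndLN by edgeR, where 0.0237% of all tested genes were called. At an unadjusted p under 0.05 there were 5 of the 10, against 11.9% of all tested genes, and DESeq2 called 2 of the 10 and 2.35% of all tested genes on the same libraries. Tnfrsf11a had a log2 fold change of 0.89 ± 0.19 (adjusted p = 0.128), Tnfsf11 of -2.64 ± 0.66 (adjusted p = 0.184) and Tnfsf13b of -2.69 ± 0.74 (adjusted p = 0.215), each with both tdLN libraries on the same side of both ndLN libraries. Lta, Ltb, Tnfsf14, Tnf and Ltbr had log2 fold changes between -0.33 and 0.14, Tnfrsf1a of -0.37 ± 0.15 and Tnfrsf1b of -0.34 ± 0.14. Both tdLN libraries were also below both ndLN libraries for Ltbr, Tnfrsf1a and Tnfrsf1b, so this separation does not set the first 3 genes apart.

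Whether the node difference itself differed between the subsets was tested as an interaction, in which edgeR called 0 of the 10 genes and 0.0379% of all tested genes. At an unadjusted p under 0.05 there were 3 of the 10, against 12.3% of all tested genes, and DESeq2 called 2 of the 10, against 3.21%. Tnfrsf1a had an interaction of 1.09 ± 0.22 on the log2 scale (adjusted p = 0.0739), Ltbr of 1.79 ± 0.40 (adjusted p = 0.103) and Tnfsf13b of 3.64 ± 0.97 (adjusted p = 0.161). For Lta and Ltb it was -1.28 ± 0.58 (adjusted p = 0.446) and -0.91 ± 0.41 (adjusted p = 0.439). Over both subsets together, 0 of the 10 were called between nodes by edgeR, against 0.223% of all tested genes. There were 5 of the 10 at an unadjusted p under 0.05, against 20.2% of all tested genes, and DESeq2 called 1, against 4.40%. Tnfsf11 stood nearest to a call there (log2 fold change -2.14 ± 0.31, adjusted p = 0.0194).

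**Figure D4:**
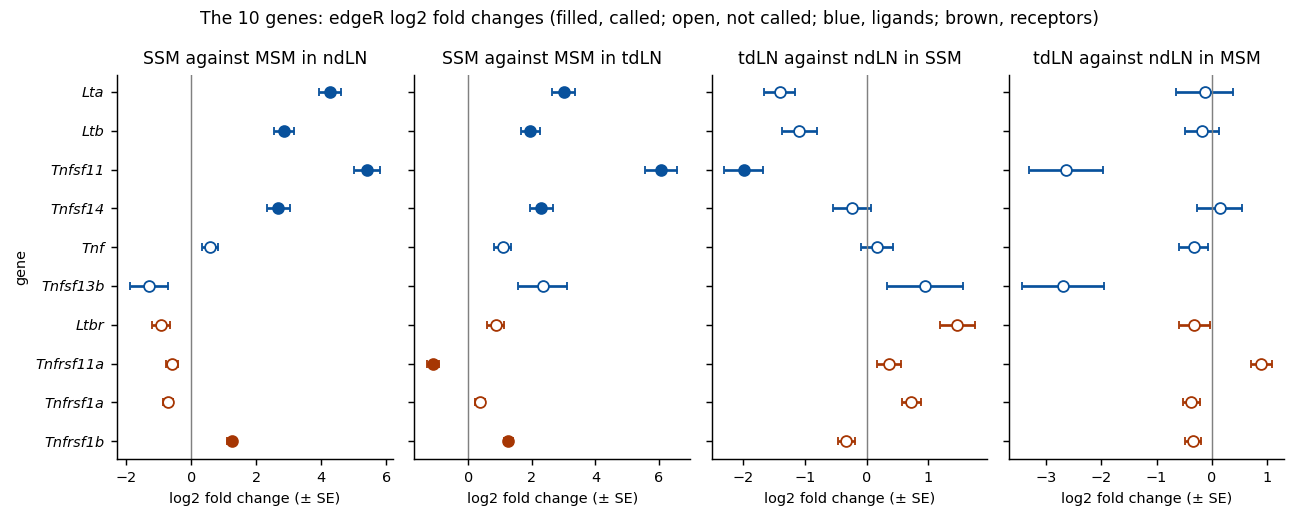
Log2 fold changes with standard errors of the 10 genes in 4 comparisons (1 panel each, x axes differ), with ligands in blue and receptors in brown. Filled points passed an adjusted p of 0.01 with a mean normalized count over 100, which gave 5, 6, 1 and 0 genes from left to right.

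The remaining TNF superfamily was read from lists of other genes of the pathway, whose counts are to be read against the shares of all tested genes called in each comparison, that is, 6.01% higher and 6.06% lower in SSMs from ndLN, 5.16% and 3.53% in tdLN, and 1.98% and 1.05% in SSMs from tdLN against ndLN. Of 12 other ligand genes, all tested, 5 were called higher in SSMs from ndLN than in MSMs and 1 lower, 4 higher and 0 lower in tdLN, and 0 higher and 2 lower in SSMs from tdLN against ndLN. The gene of CD40 ligand (Cd40lg), which activated T cells use to stimulate antigen-presenting cells and which is also on the T cell list above, had 136 and 140 CPM in SSMs from ndLN, 75.9 and 88.1 CPM in SSMs from tdLN and 0.462 to 3.31 CPM in MSMs. Its log2 fold change of SSMs against MSMs was 5.85 ± 0.32 in ndLN and 6.74 ± 0.37 in tdLN. Tnfsf8, which codes for CD30 ligand, was higher in SSMs by 4.89 ± 0.21 in ndLN and fell by 2.60 ± 0.17 in SSMs from tdLN (adjusted p = 1.10e-03), from 137 and 164 CPM to 22.9 and 26.7 CPM. The median log2 fold change of the 12 genes was 0.80 in ndLN and 0.75 in tdLN.

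Of 23 other receptor genes, 21 were tested, with 6 called higher and 2 lower in SSMs from ndLN, 5 higher and 2 lower in tdLN, and 3 higher and 2 lower in SSMs from tdLN against ndLN. Tnfrsf9, which codes for the costimulatory receptor 4-1BB, had 469 and 614 CPM in SSMs from ndLN, 175 and 195 CPM in SSMs from tdLN, 37.4 and 48.1 CPM in MSMs from ndLN and 70.9 and 76.7 CPM in MSMs from tdLN. It was the list's 1 gene called in the interaction (log2 -2.34 ± 0.19, adjusted p = 9.48e-03), lower in tdLN in SSMs and with higher values in tdLN in MSMs. Cd40, the receptor that answers CD40 ligand on antigen-presenting cells, was lower in SSMs than in MSMs (log2 fold change -1.39 ± 0.15 in ndLN) and rose in SSMs from tdLN (1.17 ± 0.15, adjusted p = 4.25e-03), from 90.7 and 71.7 CPM to 176 and 189 CPM. Tnfrsf25, the receptor DR3, was higher in SSMs (5.19 ± 0.34 in ndLN) and Tnfrsf13c, the BAFF receptor, lower (-3.53 ± 0.36).

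The genes downstream of the receptors were read in the same way. Of 25 adaptors and processing enzymes, 2 were called higher and 2 lower in SSMs from ndLN, 2 higher and 1 lower in tdLN, and 1 in each direction in SSMs from tdLN against ndLN. In ndLN these were 8% of the list in each direction, against 6.01% and 6.06% of all tested genes. Of the list, 24 genes had a mean normalized count over 100, against 9996 of the 21085 tested genes. The shares thus have an unlike base, and the 8% is not read as a result. Tnfaip3, which codes for the NF-kappaB inhibitor A20, was higher in SSMs (2288 and 2839 CPM against 780 and 664 CPM in ndLN, log2 fold change 1.83 ± 0.16), and Tnip2 was lower (-2.47 ± 0.17). Of 15 NF-kappaB kinases and subunits, 6 were called higher and 1 lower in SSMs from ndLN, and 4 higher and 0 lower in tdLN. Between nodes in SSMs, edgeR called 0 of the 15, with 5 at an unadjusted p under 0.05, against 23.0% of all tested genes. Nfkbiz, an inducible nuclear member of the inhibitor family, showed the largest log2 fold change of this list in both nodes (2.00 ± 0.20 in ndLN and 1.47 ± 0.20 in tdLN). The median over the 15 genes was 0.31 in ndLN and -0.06 in tdLN.

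Of 11 target genes of the lymphotoxin beta receptor, known mainly from stromal cells, 10 were tested. Nfkb2 was the 1 gene called between the subsets in ndLN, higher in SSMs (log2 fold change 0.82 ± 0.15), and in tdLN edgeR called 0 of the 10, with 2 at an unadjusted p under 0.05, against 27.8% of all tested genes. Vcam1, which codes for an adhesion molecule, was called higher in SSMs from tdLN than from ndLN (2.00 ± 0.25, adjusted p = 4.01e-03), from 19.5 and 28.0 CPM in ndLN to 105 and 83.7 CPM in tdLN. Of 14 genes of RANK signaling and osteoclasts, 13 were tested, with 3 called higher and 2 lower in SSMs from ndLN, 3 higher and 1 lower in tdLN, and 2 higher and 0 lower in SSMs from tdLN against ndLN. Dcstamp, which osteoclasts need to fuse, stood at 0.465 to 1.79 CPM in the SSM libraries, at 114 and 119 CPM in MSMs from ndLN and at 30.4 and 27.6 CPM in MSMs from tdLN. Itgb3, the integrin chain of osteoclasts and platelets, was higher in SSMs (4.53 ± 0.38 in ndLN and 2.53 ± 0.35 in tdLN), and Csf1r, the receptor for the macrophage growth factor CSF-1, was higher in SSMs (1.59 ± 0.22 in ndLN) and rose further in SSMs from tdLN (1.39 ± 0.22, adjusted p = 9.84e-03). Between nodes in MSMs, edgeR called 0 of the 93 tested genes of the 6 lists, where 0.0237% of all tested genes were called, with 29 at an unadjusted p under 0.05, against 11.9% of all tested genes.

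**Figure D5:**
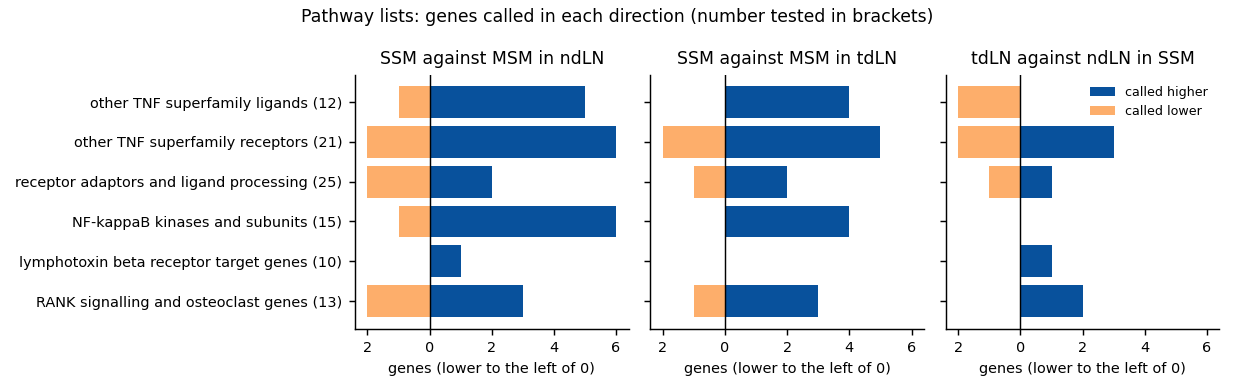
Number of genes called higher (blue, right of 0) and lower (orange, left of 0) in 6 lists of TNF superfamily and pathway genes in 3 comparisons, with the number tested in brackets. The list of other receptors has the most calls, 8 of 21 in the comparison of SSMs with MSMs in ndLN, but not the largest share. There 28.6% of the tested genes of this list were called higher and 9.52% lower. The other ligands had 41.7% and 8.33%, and the NF-kappaB list 40% and 6.67%.

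The genes whose pattern was most like each of the 9 abundant members were taken by Pearson's r of log2(CPM + 1) over the 8 libraries among 9996 genes, a description that mostly carries the differences between the 4 groups. Tnfsf11 was most like Bmp7, Foxo1 and Acap1 (r of 0.998, 0.998 and 0.997), Lta most like Nebl, Nfatc3 and Itpr2 (0.995, 0.994 and 0.993), Ltb most like Abi3bp, Card6 and Elf1 (0.997, 0.997 and 0.996) and Tnfsf14 most like Galnt6, Dennd4c and Limd2 (0.997, 0.995 and 0.995). Tnf was most like Zfp740, Gm8995 and H2afj (0.969, 0.968 and 0.962). Among the receptors, Tnfrsf1b was most like Fbxo33, Apol7e and Jak1 (0.995, 0.994 and 0.993), Ltbr most like Bach1, Ptafr and Ly86 (0.987, 0.983 and 0.980), Tnfrsf11a most like B230354K17Rik, Eif2b2 and Cops7b (0.985, 0.985 and 0.978) and Tnfrsf1a most like Sec24b, Ier3 and Trim25 (0.959, 0.957 and 0.957).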

How the data were processed

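RNA sequencing was analysed for SSMs and MSMs from ndLN and tdLN. The authors prepared cDNA with SMART-Seq v4, ran every library on 2 lanes and deposited raw read counts per gene, with reads aligned to GRCm38 (mm10). The submitters' processing notes name bcl2fastq 2.20.0.422, Trimmomatic 0.36 and STAR 2.5.3a, and the annotation and strand setting were not given in the sources used here. The count table held 16 columns, which are 8 libraries on 2 lanes each. Between lanes of the same library the counts agreed within sampling noise (chi-square per degree of freedom 0.955 to 1.02, against 29.3 to 53.1 between libraries of a group), so lanes were summed and each library counted as 1 sample. Library totals were 42972328 to 48130352 counts, and the limit of 3 counts covers counting error only. GENCODE M21 supplied symbols for 55154 features and the coordinates, and 2 added sequences held 6 counts in all. Promoters were taken from RefSeq (GRCm38.p6), with all 10 genes matched.

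Genes with a total of at least 10 counts that were detected in at least 2 columns were kept (21085). The main test was edgeR 4.0.16 (R 4.3.3), quasi-likelihood, with TMM scaling (factors 0.902 to 1.15), terms for the 4 groups and for the pool, and Benjamini-Hochberg adjustment over all tested genes. A gene was called at an adjusted p below 0.01 with a mean normalized count over 100 per lane, which is 4.41 CPM. The fit with the 4 groups had 3 residual degrees of freedom per gene, and the additive fits over both nodes or both subsets had fewer terms. The p-values rest on the spread between libraries left after these terms, over all 4 groups with 2 pools each. In edgeR's quasi-likelihood fit the spread of each gene is moderated toward that of the other tested genes. The p-values thus also rest on spread borrowed from those genes. The study's methods use DESeq2 with a term for the pool and state Holm adjustment, and these, along with other scalings, filters and left-out libraries, were run as alternatives with DESeq2 1.42.0.

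The labels number the libraries 1 and 2, and by the study's methods every pool of mice gave all 4 groups, so same-numbered libraries were treated as paired. The SSM library from tdLN without a number in its title was taken as number 1, since the other is number 2. Deviations of same-numbered libraries correlated between -0.194 and 0.148 over the 6 pairs of groups.

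The 10 genes, gene lists and marker lists were chosen with earlier results of these data known. The T cell, B cell and macrophage lists are the study's. All 10 genes were named with each library's value, and from each list at most the 3 called genes with the largest absolute log2 fold change in a comparison. The 3 most similar genes were named for each gene with a mean normalized count over 100. Cd40 and Cd8a fall outside this rule and were chosen after their values were seen, and Il23r, Il7r, Ccr6, Il17a, Cd3e and Ccl21a were named as examples of a list or a gate.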

Additional observations from a re-analysis of the deposited data

Results flagged for a closer look

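Among the 10 genes, 2 receptors had opposite differences between the nodes in the 2 subsets. They were picked by the sign of the difference in each pool. The share of all tested genes that meet this rule was not computed, so the count of 2 is not read as a result. Ltbr had higher values in tdLN than in ndLN in both pools of SSMs and lower values in both pools of MSMs, with an interaction of 1.79 ± 0.40 on the log2 scale (edgeR, unadjusted p = 0.00243, adjusted p = 0.103). Tnfrsf1a had the same arrangement, with an interaction of 1.09 ± 0.22 (unadjusted p = 0.00119, adjusted p = 0.0739). Neither passed the adjusted threshold in edgeR, and DESeq2 called both on the same libraries (adjusted p = 0.00183 for Ltbr and 6.27e-04 for Tnfrsf1a). Leaving out a library in turn kept the sign of both interactions, with values of 1.38 to 2.30 for Ltbr and 0.90 to 1.31 for Tnfrsf1a. The opposite directions were not kept for Ltbr, whose node difference in MSMs became 0.0934 without library 2 of MSMs from ndLN.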

How the results depend on the processing

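Of the counts of the 10 genes called, the comparisons of SSMs with MSMs kept within 1.5 times under most alternatives. With Holm adjustment the counts fell to 0 in ndLN, 0 in tdLN and 1 over both nodes, and DESeq2 on lanes with 4 pools, which treats lanes as samples, gave 9 in ndLN. Of all 21085 tested genes, Holm adjustment called 207 in ndLN, 108 in tdLN and 239 over both nodes, and DESeq2 on lanes called 6173 in ndLN. Leaving out each library gave 2 to 5 in ndLN, 1 to 6 in tdLN, 5 to 7 over both nodes and 0 to 0 in the comparisons of nodes and the interaction. Calls over all tested genes also fell when a library of the groups compared was left out. For tdLN against ndLN in SSMs, the count of 1 became 4 at an adjusted p below 0.05, 5 with DESeq2's Wald test, 6 on lanes and 2 with a stricter filter. It became 0 with no low-count filter, with edgeR's legacy fit, with Holm adjustment or with the 2 groups alone. Of all tested genes, the Wald test called 1932 there, the fit on lanes 4721, Holm adjustment 7 and the 2 groups alone 0. The 0 with the 2 groups alone is thus not particular to the 10 genes. In MSMs the count of the 10 genes was 2 with the Wald test and 4 on lanes, as it was for the interaction. On lanes, 2699 of all tested genes were called in MSMs and 2866 in the interaction. Over both subsets the count of the 10 was 1 at an adjusted p below 0.05, 1 with the Wald test, 5 on lanes and 1 without the replicate block. Of all tested genes, 3563 were called there on lanes and 110 without the block. Without the block by pool the count was otherwise as with it (5 in ndLN, 6 in tdLN), and over both subsets Tnfsf11 was called.

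Values near 0 changed sign. The interaction of Tnfrsf1b was -0.0172 with the Wald test, -0.0253 on lanes and -0.0171 with DESeq2's size factors, and the subset difference of Ltbr over both nodes was 0.00046 on lanes and 0.00822 with size factors. With a library left out, signs changed for 15 results that were not called, with the cause not tested. For tdLN against ndLN these ranged from -0.24 to 0.66 (Tnf) and -0.0776 to 2.17 (Tnfsf13b) in SSMs, and from -0.32 to 0.0651 (Lta), -0.77 to 0.33 (Ltb), -0.66 to 0.0934 (Ltbr) and -0.56 to 0.71 (Tnfsf14) in MSMs. Over both subsets they were -0.30 to 0.0900 (Tnf), -0.0455 to 0.39 (Tnfrsf1a) and -0.35 to 0.0756 (Tnfsf14), in the interaction -0.25 to 1.15 (Tnfsf11), -0.18 to 0.22 (Tnfrsf1b) and -0.97 to 0.31 (Tnfsf14), and over both nodes -0.36 to 0.39 (Ltbr), -0.39 to 0.0544 (Tnfrsf1a) and -0.61 to 0.78 (Tnfsf13b). Tnfsf13b and Tnfsf11 had few counts in MSMs from tdLN, with 24 and 30 in library 2. A group with a library left out holds 1 library, which is assumed to vary like the others.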
